A study of Homo sapiens with 18 samples.

Results

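LTBR and SCNN1A are neighbouring genes on human chromosome 12, and exons of some of their annotated transcripts overlap on opposite strands. Their rows in the deposited gene table were followed through all 6 groups of the experiment. The 2 rows were chosen by gene name from a table of 57773 rows, of which 5816 had enough counts to be tested. They were selected on their measured values, because the LTBR row was already known to move with tamoxifen, so the levels and fold changes of both rows are given below as a description, without a test.

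The libraries came from RWPE1, an established line of benign human prostate epithelial cells grown in keratinocyte serum-free medium. Each of 3 stable lines, made by lentiviral transduction and blasticidin selection, carries a MACC (modifier of ARE-containing chromatin). A MACC joins a DNA-binding domain for androgen response elements (AREs) to the tamoxifen-responsive ERT2 domain and a 3X FLAG tag. The neutral construct (3X) has no further domain, the repressive construct adds KRAB and the activating construct adds VP64. All lines, vehicle controls included, therefore carry a construct, and with 1 line per construct the construct and the line cannot be told apart. Vehicle (ethanol) or tamoxifen was given for 48 hours, with 3 biological replicates of each of the 6 combinations and 18 libraries in all. Tamoxifen is stated at 1.5 uM in the treatment field and at 1.25 uM in the protocol of the same samples.

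LTBR encodes the lymphotoxin beta receptor, a member of the tumour necrosis factor receptor superfamily. It binds lymphotoxin and LIGHT and signals through TRAF adaptors to the non-canonical NF-kB pathway, in which the kinase encoded by MAP3K14 leads to processing of the NFKB2 product. SCNN1A encodes the alpha subunit of the epithelial sodium channel ENaC, which takes up sodium at the apical surface of epithelia together with the beta and gamma subunits. SCNN1A is a textbook target of aldosterone and glucocorticoids, whose receptors recognise DNA elements nearly the same as AREs.

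On GRCh37, LTBR (ENSG00000111321) lies on the plus strand at chr12:6484211-6500737 and SCNN1A (ENSG00000111319) on the minus strand at chr12:6456009-6486896. Exons of both genes coincide over 422 bases, in a block of 180 bases at chr12:6484211-6484390 and a block of 242 bases at chr12:6484519-6484760. The shared part is 6.86% of the 6151 exonic bases of LTBR and 7.18% of the 5876 exonic bases of SCNN1A. It holds 39 bases annotated as coding in LTBR and 0 in SCNN1A. Of 15 annotated LTBR transcripts, 3 have an exon there, and the share of their length that is shared runs from 9.97% in LTBR-207 through 25.4% in LTBR-210 to 53.9% in LTBR-215. Of 23 SCNN1A transcripts, 10 have an exon there, among them the coding transcripts SCNN1A-201, with 59 shared bases, and SCNN1A-203, with 180.

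**Figure D1:**
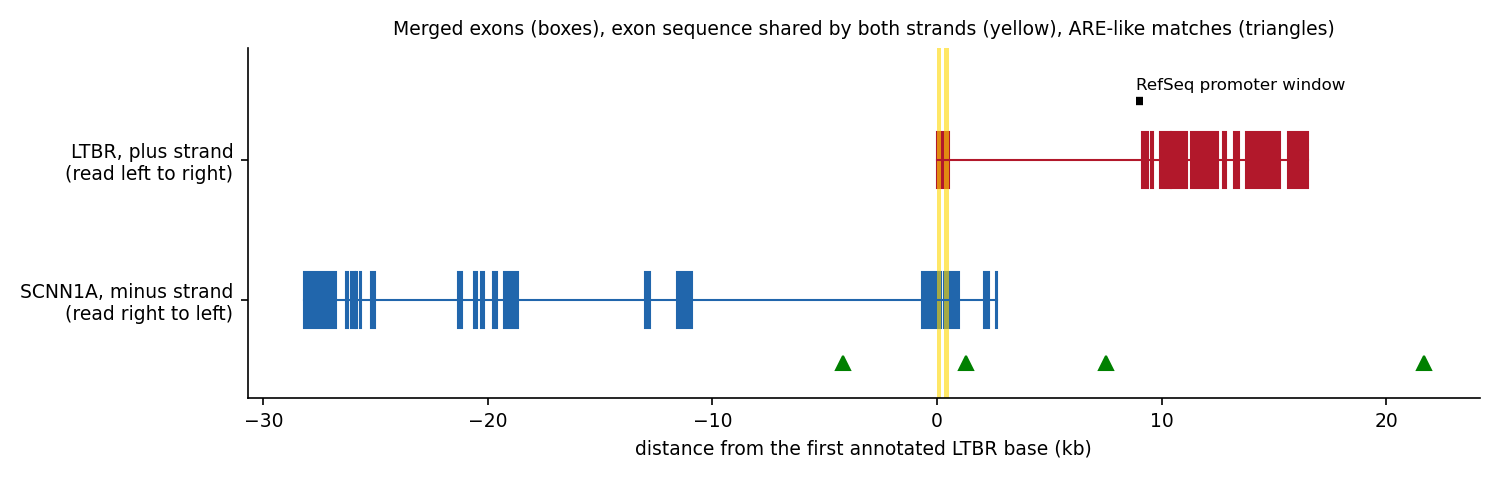
Merged exons of LTBR and SCNN1A against the distance in kb from the first annotated LTBR base, with shared exon sequence in yellow, ARE-like matches as triangles and the RefSeq promoter window of LTBR as a black bar. The 422 shared bases sit at the left end of LTBR, and the promoter window lies 8.32 kb to the right of them.

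Because MACCs were designed to bind AREs, the letters of an ARE were searched around both genes. The ARE used was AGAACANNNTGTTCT, in which N is any base. It reads the same on both strands, so 1 search covers both. Between chr12:6446009-6510737, which is the span of both genes with 10 kb on each side, 4 places matched it with at most 2 mismatches in the 12 fixed bases. These sequences are shown because they are the closest matches to the constructs' target element near the 2 genes, on the plus strand with the fixed positions in capitals.
SCNN1A intron, chr12:6480024-6480038: AGAACCccaAGTTCT
intron of both genes, chr12:6485484-6485498: AGGACAttcTGTTCT
LTBR intron, chr12:6491725-6491739: AGTGCAtgcTGTTCT
outside both genes, chr12:6505890-6505904: TGTACAcgaTGTTCT
The match inside both genes has 1 mismatch and the other 3 have 2. With 50 bases on each side, at chr12:6485434-6485548 and with the ARE positions in capitals, it reads as follows.
closest match in context: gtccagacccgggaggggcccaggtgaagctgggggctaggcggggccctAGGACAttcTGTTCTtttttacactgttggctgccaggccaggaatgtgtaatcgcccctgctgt
Such matches are common. Of 2006 windows of the same length on chromosome 12, 71.1% held at least 4 matches and 29.3% held a match with at most 1 mismatch. A match is a run of letters and is no record of binding.

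The set of RefSeq promoter windows used here, from 250 bases before to 50 bases after the transcript start, held LTBR but not SCNN1A. No SCNN1A promoter was therefore examined. The LTBR window (GRCh38.p14, chr12:6383912-6384211) matches GRCh37 once, at chr12:6493078-6493377, and thus lies at the start of the main LTBR exons and outside the shared exons. It has a GC content of 74.3%, and neither the half-site AGAACA nor its reverse complement TGTTCT occurs in it. A half-site was present in 14.8% of all 35116 promoter windows, and the full ARE without mismatch in 0.00285%.

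Total counts per library lay between 675609 and 792282, and 0 counts in a library allows a level of up to 3.79 to 4.44 CPM (counts scaled to a common library total). Such floors and the binomial intervals below cover counting error only. The prostate epithelial label was checked against its markers, of which 9 of 10 were tested. KRT5, KRT14 and KRT8, keratins of basal and luminal cells, had mean normalized counts of 921, 616 and 706 over the 18 libraries. The remaining epithelial markers were far lower, from 41.2 for KRT15 through 7.99 for CDH1 to 2.45 for EPCAM, which was not tested. KRT18, whose exons lie opposite those of KRT8, had 23.6. None of the fibroblast, leukocyte or endothelial markers reached the limit for testing, and PTPRC, VWF and CDH5, defining genes of leukocytes and endothelium, were at 0 in all libraries.

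The LTBR row held far more counts than the SCNN1A row. Over the 18 libraries LTBR had 8968 counts (498 ± 246 per library, SD), rank 221 of the 5816 tested rows by mean count, and SCNN1A had 211 counts (11.7 ± 9.44). Per kb of annotated exon the mean count was 81.0 for LTBR and 1.99 for SCNN1A, a ratio of 40.6. Of the reads assigned to either row, SCNN1A took 2.30% (95% exact binomial interval 2.002% to 2.63%). Among 557 pairs of protein-coding genes with exons opposite each other and a mean of at least 50 counts in the higher row, the median ratio of counts was 17.6, and 32.9% of the pairs had a ratio at least as large as the 42.5 of LTBR to SCNN1A.

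The library kit keeps strand, but the strand setting used for counting is not stated. In another overlapping pair of this neighbourhood, RP5-940J5.9, a lncRNA opposite GAPDH over 422 exonic bases, had a mean normalized count of 26424 and GAPDH one of 317. From this table alone, transcripts of LTBR and of SCNN1A cannot be told apart as the source of the LTBR counts, and the rows are named here as the table names them. Less RNA per cell and fewer cells that make it cannot be told apart either in such bulk samples.

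In the neutral line the LTBR row had 550, 493 and 492 normalized counts (counts divided by the size factor of the library) with vehicle and 296, 300 and 302 with tamoxifen. All 3 tamoxifen libraries lay below all 3 vehicle libraries. The log2 fold change was -0.77 (SE 0.099), or 1.71-fold lower with tamoxifen. Among all tested rows, 1038, LTBR included, had a change of at least this size in either direction in this line.

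In the repressive line the LTBR row had 614, 677 and 678 normalized counts with vehicle and 95.1, 115 and 89.1 with tamoxifen. These tamoxifen libraries were the lowest of all 18, and the highest of them stood at 0.187 times the lowest vehicle library. The log2 fold change was -2.73 (SE 0.12), or 6.62-fold lower, and 59 of the 5816 tested rows, LTBR included, had a change of at least this size in either direction.

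In the activating line the direction was opposite. The LTBR row had 519, 537 and 529 normalized counts with vehicle and 822, 719 and 742 with tamoxifen, and the tamoxifen libraries were the highest of all 18. The log2 fold change was 0.53 (SE 0.091), or 1.44-fold higher. A change of at least this size in either direction was common here, with 1909 of all tested rows, LTBR included.

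Vehicle and tamoxifen did not overlap in any line for LTBR. The share of all tested rows that were likewise apart is not given here, so no weight is put on such separation for either row. As background for all tested rows, 0.774% passed the test in the neutral line (0.327% upward, 0.447% downward), 9.65% in the repressive line (5.62% upward, 4.02% downward) and 2.8% in the activating line (1.34% upward, 1.46% downward), with an adjusted p under 0.05 in DESeq2. An adjusted p was available for 1193 rows in the neutral, 4575 in the repressive and 1644 in the activating line, so that a row not called may also be one without an adjusted p. Nothing is read from these shares for LTBR and SCNN1A, which were chosen on the same contrasts. They are the background for every count of called list rows below. The median log2 fold change of all tested rows was 0.0048 in the neutral, -0.023 in the repressive and -0.00027 in the activating line.

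**Figure D2:**
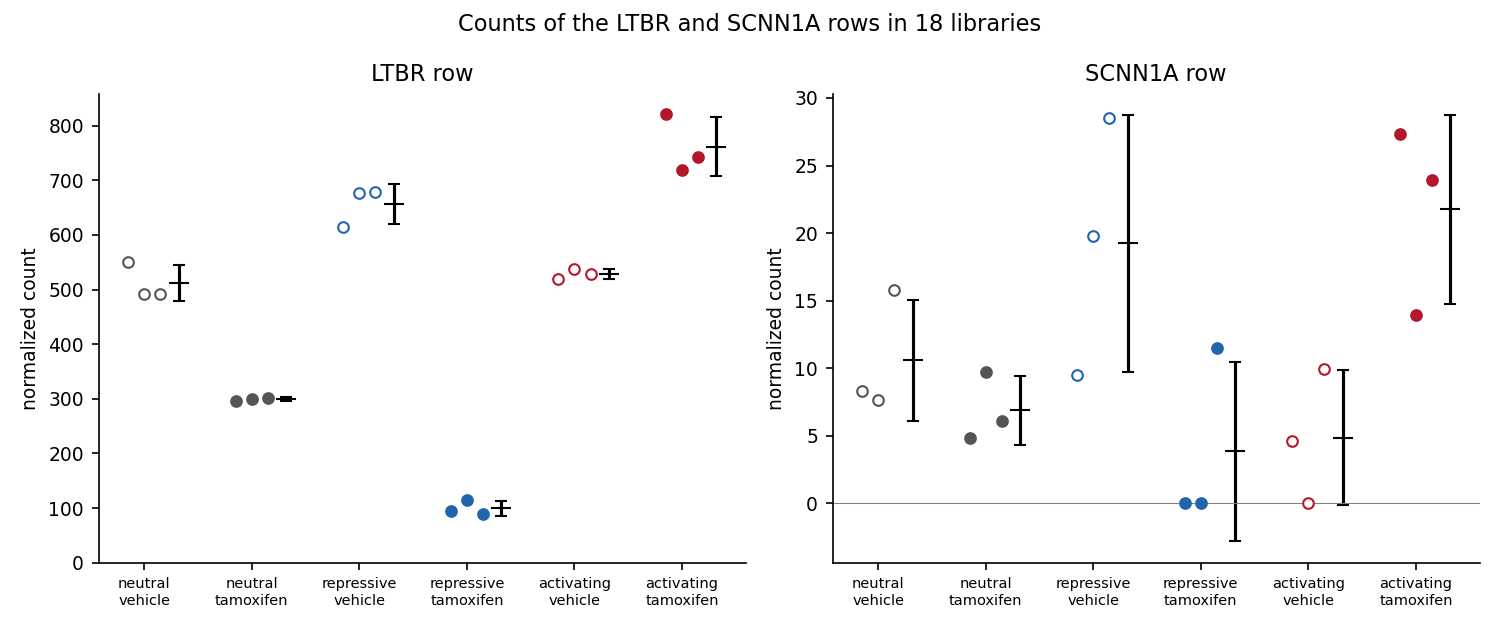
Normalized counts of the LTBR row (left) and the SCNN1A row (right) in each of the 18 libraries, with open points for vehicle, filled points for tamoxifen and black marks for the group mean ± SD (n = 3). LTBR ranges from 89.1 in the repressive line with tamoxifen to 822 in the activating line with tamoxifen, while SCNN1A stays at or below 28.5, with vehicle and tamoxifen apart in the activating line alone.

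Ordered by group mean, the LTBR row was lowest in the repressive line with tamoxifen (99.7 ± 13.5 normalized counts, SD, n = 3) and next in the neutral line with tamoxifen (299 ± 3.26). The neutral (511 ± 33.2) and activating (528 ± 8.98) lines with vehicle followed. Above them were the repressive line with vehicle (657 ± 36.6) and the activating line with tamoxifen (761 ± 54.0). Each step in this order separated the libraries without overlap except that between the neutral and the activating line with vehicle. Before induction the repressive line was thus the highest of the 3, with a log2 difference of 0.36 (SE 0.093) from the neutral line. A difference of at least this size in either direction was common, with 2697 of all tested rows, LTBR included. The activating line differed from the neutral line by 0.047 (SE 0.094).

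The tamoxifen effect on the LTBR row also differed in size between lines. Relative to the neutral line, the log2 fold change was lower by 1.95 (-1.95, SE 0.157) in the repressive line and higher by 1.30 (SE 0.135) in the activating line. The activating and repressive lines were 3.25 (SE 0.152) apart on the log2 scale. These differences share the neutral or repressive libraries and are not independent of each other. Over all tested rows, LTBR included, 328, 724 and 71 had a difference at least this large in either direction, in the order given.

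The SCNN1A row was close to the detection limit. In the neutral line it had 8, 8 and 16 counts with vehicle and 5, 10 and 6 with tamoxifen, and the groups overlapped. The repressive line had 10, 22 and 31 counts with vehicle and 0, 0 and 11 with tamoxifen, and these overlapped too, through replicate 3 of the tamoxifen group alone. In the activating line the counts were 5, 0 and 11 with vehicle and 27, 15 and 26 with tamoxifen, and only here did the groups stand apart, with vehicle at 9.96 normalized counts or less and tamoxifen at 13.96 or more.

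For SCNN1A the fitted log2 fold changes were -0.62 (SE 0.77) in the neutral, -2.32 (SE 0.81) in the repressive and 2.15 (SE 0.77) in the activating line. Their signs are those of LTBR in the same line, and the standard errors are several times those of LTBR. The size of the fall in the repressive line, though not its sign, rests on 1 library. Without replicate 3 of the tamoxifen group both remaining libraries are at 0 and the fit gives -6.62, which is no bound. The other 2 values also depended on single libraries. Without vehicle replicate 3 the neutral value was -0.21, and without tamoxifen replicate 2 it was -0.96. The activating value was 1.58 without vehicle replicate 2 and 3.22 without vehicle replicate 3. By group mean, SCNN1A ran from 3.84 ± 6.66 normalized counts in the repressive line with tamoxifen to 21.8 ± 6.97 in the activating line with tamoxifen, and every neighbouring pair of groups in this order overlapped.

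The share of SCNN1A among the counts of both rows was 2.04% ± 0.921 (SD, n = 3) and 2.24% ± 0.804 in the neutral line with vehicle and tamoxifen. It was 2.80% ± 1.26 and 3.82% ± 6.62 in the repressive line, and 0.909% ± 0.925 and 2.75% ± 0.736 in the activating line. The widest value came from replicate 3 of the repressive line with tamoxifen, at 11.5% (11 of 96 counts, 95% exact binomial interval 5.86% to 19.6%). In the other 17 libraries the share was at most 4.03%.

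The other ENaC subunits had almost no counts in their own rows. SCNN1B, SCNN1G and SCNN1D, the beta, gamma and delta subunits, had at most 1, 5 and 3 counts in any library, and none was tested. As for LTBR and SCNN1A, a low count in a gene's own row cannot be told apart here from reads given to the other strand, and this holds for every list and marker gene described.

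Of 23 listed regulators and partners of ENaC, 12 were tested in their own rows. In the repressive line 2 of the 12 rose and 1 fell, while 5.62% of all tested rows rose and 4.02% fell. TSC22D3, the glucocorticoid-induced protein GILZ, fell by 2.84 on the log2 scale (SE 0.53). ELF3, an epithelial transcription factor, rose by 0.96 (SE 0.31). In the activating line 1 of the 12 rose, and in the neutral line 0 of 12 were called by DESeq2 or edgeR, with 1 at an unadjusted p under 0.05 in each. The kinase WNK1, the protease inhibitor SPINT2, the scaffold SLC9A3R1 (NHERF1) and the protease ST14 were not called in any line, and their log2 fold changes lay between -0.69 and 0.31. SGK1 and NEDD4L, the kinase and the ubiquitin ligase that set ENaC surface levels, had at most 3 and 2 counts. The list medians were 0.25, 0.21 and 0.067 in the neutral, repressive and activating line.

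Rows opposite these regulators were also counted. Of the 7 tested, 1 rose in each line in DESeq2, but in the neutral line edgeR called 0 of 7, with 1 at an unadjusted p under 0.05. In the repressive line it was NME7, opposite ATP1B1, which rose by 1.16 (SE 0.31).

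Of 18 listed corticosteroid targets, 10 were tested. In the repressive line 4 of the 10 fell and 1 rose, with a list median of -1.78. Over all tested rows 4.02% fell and 5.62% rose there. CEBPD, a C/EBP transcription factor, had 130 to 153 normalized counts with vehicle and 24.3 to 33.5 with tamoxifen and fell by 2.28 on the log2 scale (SE 0.26). FKBP5, a co-chaperone of steroid receptors, went from a range of 26.1 to 60.8 to one of 5.82 to 8.38 and fell by 2.59 (SE 0.45). TSC22D3, described above, was the third, with 20.2 to 39.5 normalized counts with vehicle and 3.14 to 5.80 with tamoxifen. MT2A, a metal-binding metallothionein, fell by 2.34 (SE 0.62). CDKN1C, the cell cycle inhibitor p57, was the exception and rose by 1.59 (SE 0.56).

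In the neutral line CEBPD was the only one of the 10 called, and it fell by 0.89 (SE 0.24, adjusted p = 0.0090 in DESeq2), but edgeR called 0 of 10, with 2 at an unadjusted p under 0.05. In the activating line KLF9, a glucocorticoid-induced Krueppel-like factor, was the only one called, with a rise of 0.89 (SE 0.31, adjusted p = 0.044 in DESeq2). That call was lost with edgeR (adjusted p = 0.13) and without independent filtering (adjusted p = 0.12). CDKN1C had the largest value there, 2.36 (SE 0.49), but received no adjusted p in DESeq2 because of its low count. It passed with edgeR (adjusted p = 0.0013) and in DESeq2 without independent filtering (adjusted p = 0.00026). The list medians were 0.17 in the neutral and 0.48 in the activating line. NFKBIA, PER1, TFCP2L1 and ANGPTL4 were not called in any line.

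**Figure D3:**
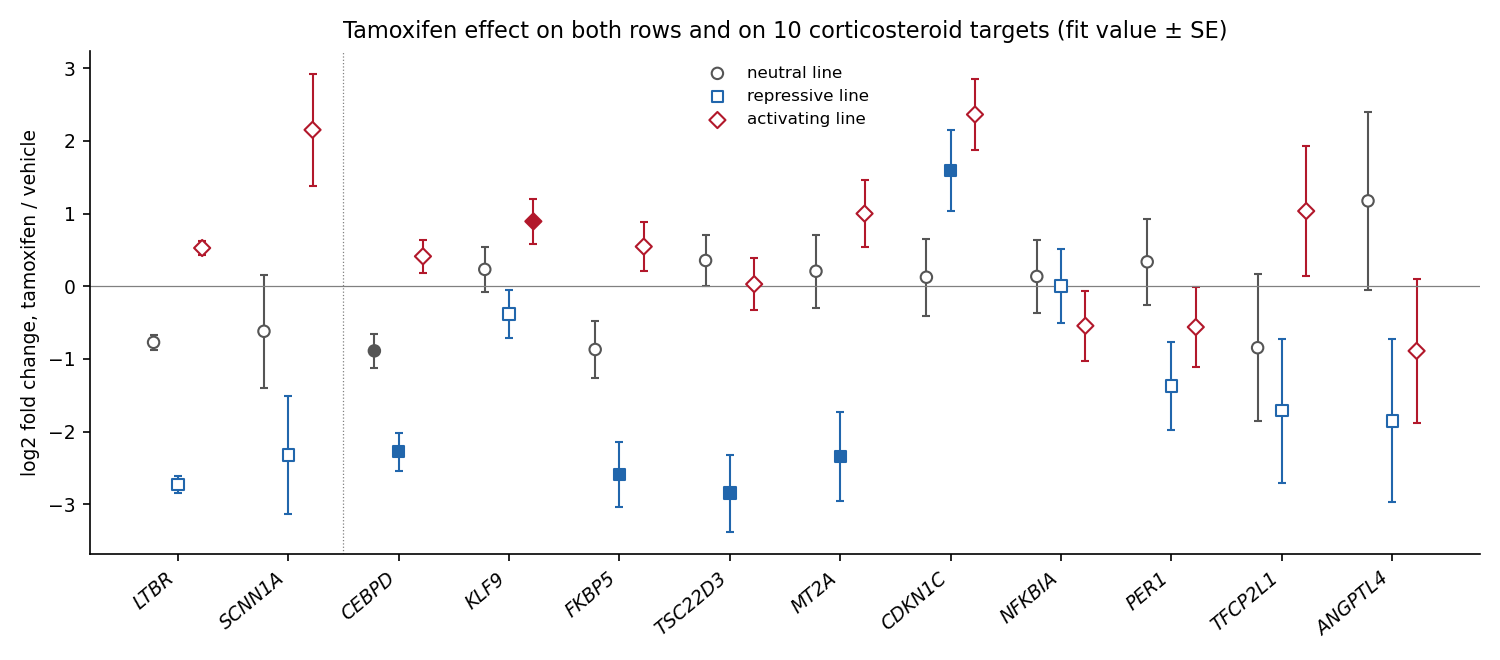
Log2 fold change of tamoxifen against vehicle (fit value ± SE) for LTBR, SCNN1A and the 10 tested corticosteroid targets, with circles for the neutral, squares for the repressive and diamonds for the activating line and filled symbols for rows called changed (LTBR and SCNN1A are drawn open, as they were not tested). LTBR at -2.73 in the repressive line lies beside CEBPD at -2.28, FKBP5 at -2.59, TSC22D3 at -2.84 and MT2A at -2.34. CDKN1C at 1.59, NFKBIA at 0.0056 and KLF9 at -0.38 lie apart from it there. PER1, TFCP2L1 and ANGPTL4, not called, lie between -1.85 and -1.37.

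Among 12 listed steroid receptors and chaperones, 8 were tested and FKBP5 in the repressive line was the only call. The oestrogen receptor gene ESR1, the source of the ERT2 domain, the chaperone HSP90AB1 and the co-chaperones PTGES3 and FKBP4 had log2 fold changes between -0.65 and 0.40. The mineralocorticoid receptor gene NR3C2 had at most 4 counts. The neutral and activating lines had 0 of 8 called by DESeq2 or edgeR, with 1 in each at an unadjusted p under 0.05 by either tool, and the list medians were -0.0057 in the neutral, -0.31 in the repressive and 0.081 in the activating line.

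The signalling partners of LTBR were mostly too low to test. Of 17 listed ligands, adaptors and non-canonical NF-kB genes, 5 were tested and 0 were called in any line by DESeq2 or edgeR, with 1 at an unadjusted p under 0.05 in DESeq2, in the neutral line. The ligand genes LTA and TNFSF14 were at 0 in all libraries, and LTB had at most 9 counts. NFKB2, RELA, NFKB1 and MAP3K14 had mean normalized counts of 9.67, 8.51, 6.49 and 5.59. MAP3K14-AS1, opposite MAP3K14, had 135 and was not called either. The list medians were 0.38, -0.48 and 0.20 in the neutral, repressive and activating line.

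Of 15 listed targets of LTBR and NF-kB, 2 were tested, SOD2 and NFKBIA, and 0 were called by either tool, with 0 at an unadjusted p under 0.05. Their medians were 0.20, 0.081 and -0.19 in the neutral, repressive and activating line. Chemokine genes of this list, such as CXCL12, CXCL13 and CCL21, were at 0 in all libraries. CTD-2369P2.8, opposite the adhesion gene ICAM1, rose by 1.05 (SE 0.22) in the repressive line.

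Of the 9 tested epithelial markers, 2 rose in the neutral line, 2 rose in the repressive line, and 1 rose and 1 fell in the activating line. Over all tested rows 0.327%, 5.62% and 1.34% rose in these lines, and 1.46% fell in the activating line. KRT5 rose by 0.37 (SE 0.11) in the neutral line and 0.43 (SE 0.11) in the repressive line. KRT14 rose by 0.45 (SE 0.13) in the neutral line and 0.43 (SE 0.13) in the activating line. With edgeR both neutral calls were lost (adjusted p = 0.18 for KRT5 and 0.13 for KRT14), as was that of KRT14 in the activating line (adjusted p = 0.051). KRT15 rose by 1.00 (SE 0.34) in the repressive line, as did AC078883.4, opposite ITGA6, by 0.91 (SE 0.32). The KRT8 row fell by 0.33 (SE 0.085) in the activating line. KRT8 and KRT18 share 525 exonic bases on opposite strands, so the source of the KRT8 counts cannot be told here. In the activating line KRT15 had a log2 fold change of 1.14 (SE 0.33) but received no adjusted p in DESeq2, and it passed with edgeR (adjusted p = 0.039). KRT18, ITGA6, KRT19 and TP63 were not called. The summed level of the 10 markers lay between 2728 and 3840 CPM over all libraries, and its part in the LTBR values was not tested.

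Over all lists, own and opposite rows together and each counted once, 56 rows were tested. Of these, 4 passed in the neutral line (3 upward), 12 in the repressive line (8 upward) and 5 in the activating line (4 upward). That is 7.14%, 21.4% and 8.93% of the 56 rows, beside 0.774%, 9.65% and 2.8% of all tested rows. The lists were chosen with earlier results of these data known, and the difference in shares was not tested. The medians of the 56 log2 fold changes were 0.22, 0.079 and 0.18.

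The rows around the 2 genes were examined next. Of 26 other rows within 200 kb, 11 were tested and 0 were called in any line by DESeq2 or edgeR. At an unadjusted p under 0.05, DESeq2 gave 1 in the neutral, 3 in the repressive and 1 in the activating line, and edgeR 1, 2 and 1. TNFRSF1A, a tumour necrosis factor receptor gene 4.73 kb from the pair, had a log2 fold change of -1.24 (SE 0.66) in the repressive line. TAPBPL and VAMP1, which overlap each other on opposite strands, had -0.35 (SE 0.83) and 1.21 (SE 0.57) there. MRPL51 had -0.082 (SE 0.20).

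Similarity to LTBR was measured as Pearson's r of log2(normalized count + 1) over the 18 libraries, among 1461 tested rows with a mean of at least 50. The libraries fall into the same 6 groups for every row, so r describes the group pattern and has no p. CEBPD had the highest r, 0.94. It was followed by ENTPD1 (0.89, opposite ENTPD1-AS1), KHNYN (0.89, opposite SDR39U1), RPS17L and RPL13A (both 0.88). KRT6A, RP11-154D6.1 and IPPK (opposite CENPP) were at 0.87. For SCNN1A, below the count limit of this comparison, r was 0.60. In the repressive line the log2 fold changes of these 8 rows ran from -2.28 in CEBPD to -0.40 in KHNYN, against -2.73 in LTBR. Their range in the neutral line was from -0.89 in CEBPD to 0.20 in RP11-154D6.1, against -0.77 in LTBR. In the activating line it was from -0.011 in ENTPD1 to 0.96 in RP11-154D6.1, against 0.53 in LTBR. ENTPD1, for example, had 1322 ± 83.1 and 1139 ± 42.0 normalized counts in the neutral line with vehicle and tamoxifen, and 815 ± 43.6 in the repressive line with tamoxifen.

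Among the rows most opposed to LTBR were BEST1 (r = -0.94, opposite the ferritin gene FTH1) and CTD-2139B15.2 (-0.92, opposite FTH1P10). CTD-2139B15.2 rose by 0.98 on the log2 scale (SE 0.097) in the repressive line, from 742 ± 96.7 normalized counts with vehicle to 1469 ± 26.5 with tamoxifen.

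**Figure D4:**
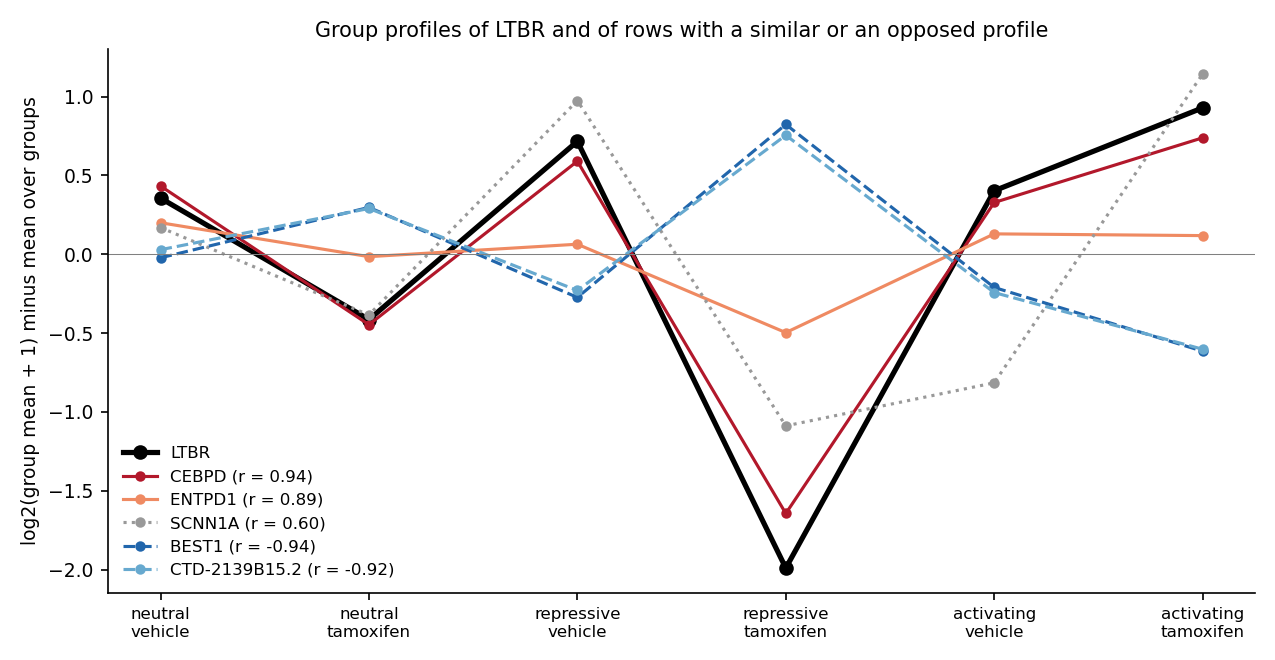
Group profiles, as log2(group mean + 1) minus the mean over the 6 groups, for LTBR, for CEBPD, ENTPD1 and SCNN1A and for the opposed rows BEST1 and CTD-2139B15.2, with r over the 18 libraries in the legend. CEBPD (r = 0.94) is, like LTBR, lowest in the repressive and next in the neutral line with tamoxifen. With vehicle its mean is higher in the neutral (127) than in the activating line (118), unlike that of LTBR (511 and 528). BEST1 (-0.94) and CTD-2139B15.2 (-0.92) peak in the repressive line with tamoxifen, where LTBR is lowest.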

How the data were processed

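RNA-seq libraries were made by the authors with a stranded mRNA kit and run through nf-core/rnaseq on GRCh37, where Salmon 1.9.0 estimated the counts. DESeq2 1.28.0 is also named in the submitters' processing notes. The annotation release and the strandedness setting are not given in the sources used here. The deposited table, made by the authors with Salmon, holds expected counts per gene in 18 libraries, not scaled for depth or length, and 1.10% of the values were not whole and were rounded before testing.

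Rows reaching 10 counts in 3 or more libraries (5816 rows, 97.6% of the counts) were fitted with DESeq2 1.42.0 in R 4.3.3, with 1 mean per group over all 18 libraries, median-of-ratios size factors and Wald tests. P-values were adjusted by Benjamini-Hochberg over the tested rows that independent filtering kept, which leaves the others without an adjusted p, and rows with an adjusted p under 0.05 are called changed. Fold changes are unshrunken. The fit was checked on simulated counts. P-values measure the spread between these replicates, and separate cultures are stated only as biological replicates.

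Exons came from GENCODE mapped to GRCh37, and sequences from that genome and from RefSeq (GRCh38.p14). The rows followed and the gene lists, written from general knowledge, were chosen with earlier results of these data known. Rows named are both members, the 8 highest and 4 lowest r with LTBR, every called list row and up to 4 uncalled ones with the highest mean, and up to 4 neighbours nearest LTBR. Some rows that this rule names are not reported here. Other genes (low-count list members, defining markers) were named after their values were seen. The alternatives tried were edgeR 4.0.16, total-count scaling, no count filter, no independent filtering, unrounded values, fits of only the 2 groups compared, the replicate number as a block, and each library left out in turn. Same-numbered vehicle and tamoxifen libraries did not deviate together (r between -0.30 and 0.14), so numbers were not used to pair samples.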

Additional observations from a re-analysis of the deposited data

Results flagged for a closer look

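The LTBR row moved in opposite directions in different lines. Its log2 fold change was 0.53 in the activating line, -0.77 in the neutral line and -2.73 in the repressive line. The tamoxifen effect of the activating line was 1.30 above that of the neutral line and 3.25 above that of the repressive line on the log2 scale. These differences were not tested, because the row was chosen on these values.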

How the results depend on the processing

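No LTBR or SCNN1A fold change changed sign under the alternatives tried; list and neighbouring rows were followed as counts of calls. The LTBR effect in the repressive line was -2.86 with total-count scaling and between -2.83 and -2.65 when each library was left out in turn. Its difference from the neutral line was -2.08 and between -2.06 and -1.87, and the difference of the activating from the repressive line was 3.40 and between 3.17 and 3.36. The SCNN1A effect in the repressive line ran from -6.62 to -1.71 over the left-out libraries, and only leaving out replicate 3 of its tamoxifen group moved it beyond the replicate spread.

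Counts of called rows moved more. In the neutral line the 45 rows became 22 with edgeR and 26 without independent filtering, and between 25 and 53 with a library left out, the lowest without tamoxifen replicate 3 and 27 without tamoxifen replicate 1. In the activating line the 163 rows became 102 with edgeR and between 94 and 156 with a library left out, 94 both without tamoxifen replicate 3 and without vehicle replicate 2. The 4 list rows called in the neutral line became 0 with edgeR, 1 without independent filtering and 2 with a replicate block, and between 0 and 5 with a library left out. The 12 in the repressive line became 6 with total-count scaling, and the 5 in the activating line ran from 3 to 6 with a library left out. Of the neighbouring rows, 2 were called in the repressive line with total-count scaling, 1 without the count filter and 0 to 1 with a library left out.

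With the replicate block the LTBR effects were -0.77, -2.73 and 0.53 in the neutral, repressive and activating line, and the block moved no other count of calls by over 1.5 times. The cause of these shifts was not tested. At 211 counts in 18 libraries, SCNN1A is limited by depth, and a group of 3 libraries at a mean of 4 to 22 counts cannot show a small change.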
